A study of Homo sapiens with 6 samples.

Results

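The genes of 37 chromatin regulators, among them Polycomb group and MLL proteins, were examined for occupancy by PLAG1-S and USF2 in K562, a cell line from a human chronic myelogenous leukemia. Members are the listed genes themselves, out of 20037 protein-coding genes on the chromosomes used, and a peak belongs to a gene when it lies inside the gene body or within 3 kb of it on hg38. The rule names the genes and uses no peak value, although the list was drawn up with earlier results of these data known. The ChIP-seq used K562 clones #4 and #5, both of which co-overexpressed Flag-PLAG1-S, a FLAG-tagged form of the zinc finger factor PLAG1, and USF2, a basic helix-loop-helix leucine zipper factor. From each clone came 1 anti-Flag and 1 anti-USF2 immunoprecipitation, giving 2 libraries per factor, and the inputs of both clones served as the background. Each library thus comes from 1 clone. Both clones carry ectopic copies of both factors, so that occupancy by endogenous levels of either was not measured.

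Chromatin regulators set which genes can be transcribed by modifying histones or moving nucleosomes. Polycomb repressive complex 2 (PRC2) methylates histone H3 at repressed genes, Polycomb repressive complex 1 (PRC1) reads that mark and ubiquitinates histone H2A, and the Polycomb deubiquitinase (PR-DUB) removes the ubiquitin. The MLL (KMT2) complexes methylate a different lysine of H3 at active promoters and enhancers, and demethylases, acetyltransferases, deacetylases and the SWI/SNF nucleosome remodelers act beside them. Many of these genes are mutated or rearranged in blood cancers, and several govern the self-renewal of blood stem cells.

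Promoter sequences are shown for 8 of the 16 members with a reproducible PLAG1-S summit in the promoter window, since the factors' known motifs can be read in them directly. They are the 250 bases before the RefSeq gene start (GRCh38.p14), written 5′ to 3′ on the strand of the gene. Capitals mark 2 motifs searched on both strands. The first is the E-box CACGTG, the palindrome known to be bound by USF factors. The second is a G-rich motif, GGGGC followed after 6 to 8 bases by GGG, the bipartite form known for PLAG family proteins. A co-bound peak is a PLAG1-S peak found in both clones that lies within 100 bp of a USF2 peak found in both. The promoter window covers 250 bases before the start and 50 after it. All 4 members with a co-bound summit in it are shown, namely KDM6A at chrX:44872938-44873187 (+ strand), BMI1 at chr10:22320849-22321098 (+ strand), ASXL2 at chr2:25878488-25878737 (- strand) and KMT2D at chr12:49060795-49061044 (- strand).
KDM6A: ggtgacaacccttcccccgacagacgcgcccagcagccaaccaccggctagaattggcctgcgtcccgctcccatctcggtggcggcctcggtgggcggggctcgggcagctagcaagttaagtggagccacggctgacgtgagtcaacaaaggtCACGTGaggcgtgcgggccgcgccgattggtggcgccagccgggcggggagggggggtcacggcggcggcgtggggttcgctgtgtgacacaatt
BMI1: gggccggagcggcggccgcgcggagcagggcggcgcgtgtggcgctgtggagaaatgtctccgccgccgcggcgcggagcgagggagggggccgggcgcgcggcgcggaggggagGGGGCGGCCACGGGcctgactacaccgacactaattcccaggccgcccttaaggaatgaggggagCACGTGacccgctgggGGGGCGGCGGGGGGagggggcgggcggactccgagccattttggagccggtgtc
ASXL2: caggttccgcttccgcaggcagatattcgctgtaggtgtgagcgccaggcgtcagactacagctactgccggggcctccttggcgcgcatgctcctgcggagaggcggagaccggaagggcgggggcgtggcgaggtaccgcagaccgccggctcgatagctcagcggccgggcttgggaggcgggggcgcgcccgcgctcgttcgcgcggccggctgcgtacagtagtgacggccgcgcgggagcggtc
KMT2D: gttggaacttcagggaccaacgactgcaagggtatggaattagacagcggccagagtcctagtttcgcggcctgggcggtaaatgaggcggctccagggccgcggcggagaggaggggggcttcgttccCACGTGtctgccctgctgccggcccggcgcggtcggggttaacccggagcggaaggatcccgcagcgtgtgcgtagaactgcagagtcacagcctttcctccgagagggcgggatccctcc

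In KDM6A the E-box spanned −95 to −90, counted from the gene start at 0 with negative numbers upstream, and the clone 4 summits lay at −85 (PLAG1-S) and −88 (USF2). BMI1 held an E-box at −70 to −65 between G-rich matches at −135 to −122 and −54 to −41, and its PLAG1-S summit was at −87. The E-box of KMT2D was at −121 to −116 and its PLAG1-S summit at −105. No match to either set of letters was found in the ASXL2 stretch, whose summit was at −20. SUZ12 at chr17:31936757-31937006 (+ strand) and KMT2A at chr11:118436242-118436491 (+ strand), without a co-bound peak, are shown for comparison, as the 2 such members with the largest clone 4 PLAG1-S fold at a summit in the window. HDAC1, at chr1:32291833-32292082 (+ strand), and NSD1, at chr5:177131548-177131797 (+ strand), were added after their values were seen, as starts with a PLAG1-S peak but no USF2 peak in either clone.
SUZ12: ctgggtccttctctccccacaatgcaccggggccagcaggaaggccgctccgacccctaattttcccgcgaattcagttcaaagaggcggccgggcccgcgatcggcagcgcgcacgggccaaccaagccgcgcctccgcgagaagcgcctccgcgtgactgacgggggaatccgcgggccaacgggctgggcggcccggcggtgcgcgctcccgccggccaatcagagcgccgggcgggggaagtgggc
KMT2A: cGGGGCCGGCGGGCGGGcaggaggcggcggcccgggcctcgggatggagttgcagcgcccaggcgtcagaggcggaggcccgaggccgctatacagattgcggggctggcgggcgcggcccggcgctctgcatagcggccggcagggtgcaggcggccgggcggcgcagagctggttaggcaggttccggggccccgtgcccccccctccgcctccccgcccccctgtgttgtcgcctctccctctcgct
HDAC1: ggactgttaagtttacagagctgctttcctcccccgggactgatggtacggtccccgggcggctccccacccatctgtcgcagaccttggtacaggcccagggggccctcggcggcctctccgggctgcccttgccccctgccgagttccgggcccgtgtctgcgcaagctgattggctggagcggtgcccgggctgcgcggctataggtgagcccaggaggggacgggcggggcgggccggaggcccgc
NSD1: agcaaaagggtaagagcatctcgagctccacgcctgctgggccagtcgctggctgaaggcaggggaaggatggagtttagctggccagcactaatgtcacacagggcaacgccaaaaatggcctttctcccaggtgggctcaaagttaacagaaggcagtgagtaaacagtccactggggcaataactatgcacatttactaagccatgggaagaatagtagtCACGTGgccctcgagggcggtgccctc

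The stretches of SUZ12 and HDAC1 held neither motif, KMT2A held a G-rich match at −249 to −234, and NSD1 held an E-box at −27 to −22. RefSeq promoters were matched for 33 of the 37 members and for 15843 protein-coding genes. Over the whole window of 300 bases, an E-box was present in 4 member promoters (12.1%) and in 8.88% of all promoters. The corresponding shares for the G-rich motif were 48.5% (16 promoters) and 29.6%. Among promoters with a co-bound summit in the window, genome-wide, 85.6% of 646 held an E-box, against 19.2% of 1952 with a PLAG1-S summit that was not co-bound and 3.62% of 13245 with neither. KDM6A, BMI1 and KMT2D thus belonged to the majority of co-bound promoters by this measure and ASXL2 to the minority. Genome-wide, the G-rich motif was in 38.9% of the 646 co-bound promoters and 44.5% of the 1952 with a PLAG1-S summit not co-bound. Among the 13245 with neither, the share was 26.98%. Whether the member share of the G-rich motif moves with PLAG1-S summits or with GC content was not tested. The matches describe letters and were not tested as binding sites.

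The peak calls were made library by library over the 2 inputs combined, and the deposited lists give for each peak a fold enrichment at its summit over the local background. The labels give a depth of 42.5 M single-end reads of 50 bp per immunoprecipitation and 55 M per input. PLAG1-S lists held 37574 (clone 4) and 29889 (clone 5) peaks, of which 111 and 102 were at member genes. Of the 9338 and 4369 USF2 peaks, 28 and 19 were at member genes. At member summits the median number of fragments, recovered from the deposited fold and p, was 28 (clone 4) and 24 (clone 5) for PLAG1-S, with USF2 at 22.5 and 22, over a local background of 2.60 to 8.59 fragments. A peak of USF2 therefore rests on fewer fragments at a looser limit (highest q-values of 0.049 and 0.048, against 0.0099 and 0.0097 for PLAG1-S), and folds of the 2 antibodies are not amounts of bound protein on 1 scale. With 2 clones per factor no test of a single locus was made, and all values below are descriptions.

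Nearly all of the chromatin regulator genes carried PLAG1-S, and about 1 in 3 carried both factors. In clone 4, 35 of the 37 genes (94.6%) had a PLAG1-S peak, against 64% of all protein-coding genes, and in clone 5, 35 genes had one, against 58.3%. Any USF2 peak was found at 20 genes (54.1%) in clone 4, against 25.3%, and at 17 genes (45.9%) in clone 5, against 13.6%. Peaks of 1 factor that shared at least 1 bp between the clones were counted as reproducible and keep their clone 4 positions. Reproducible PLAG1-S peaks were present at 35 genes (94.6%), against 52% of all protein-coding genes, and reproducible USF2 peaks at 12 genes (32.4%), against 10.3%. Co-bound peaks were present at 13 genes (35.1%), against 9.98%. The counts for USF2 depended on the clones and the calling limit. With clone 4 alone (without clone 5), 20 genes had USF2 and 20 were co-bound, and in the union of both clones 22 and 21. At a stricter limit, a −log10 q of 10 or more, 4 genes had USF2 and 5 were co-bound. No share over all protein-coding genes was computed for the co-bound count of clone 4 alone, the union or the stricter limit. These counts therefore show only how the member counts move.

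Where both were computed, the member shares ran above those of all genes, but the members' gene bodies were also longer. The median gene body was 64.2 kb among members and 24.1 kb among all protein-coding genes. Within 1 kb of the gene start (both ends were used for genes with no strand), 31 members (83.8%) had a reproducible PLAG1-S peak, against 38.9%. For USF2 the count was 8 members (21.6%), against 7.05%, and for co-bound peaks 9 members (24.3%), against 7%. Of the 9, ARID1A has no reproducible USF2 peak in this window and counts by the edge of a co-bound PLAG1-S peak with its summit at +1466. Whether gene length or the members' expression in these cells moves with these shares was not tested.

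**Figure D1:**
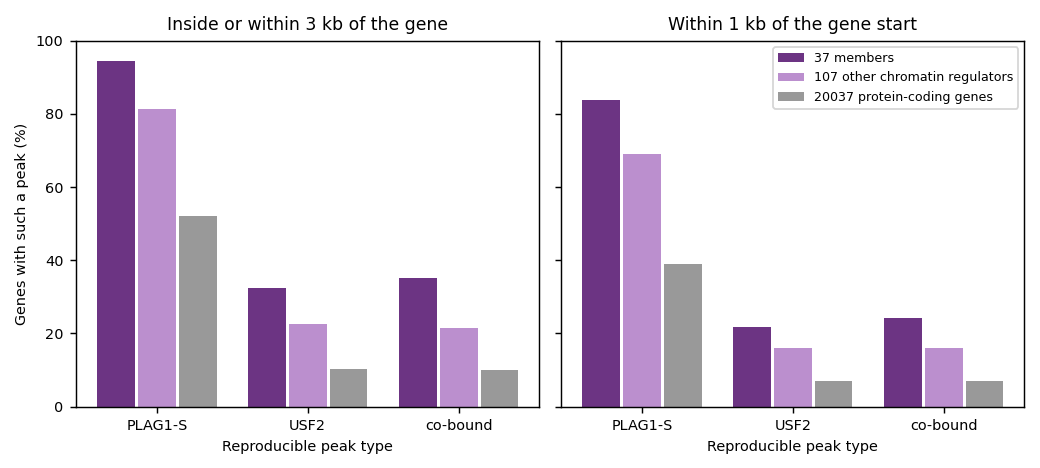
Share of genes (%) with a reproducible PLAG1-S, USF2 or co-bound peak, inside or within 3 kb of the gene (left) or within 1 kb of its start (right), for the 37 members, 107 other chromatin regulators and 20037 protein-coding genes; bars are single percentages with no error. In each of the 6 comparisons the members had the highest share (for co-bound peaks 35.1%, 21.5% and 9.98% on the left) and all protein-coding genes the lowest.

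The members hold 83 reproducible PLAG1-S peaks, of which 14 were co-bound. Of the other 69, 54 had no USF2 peak in either clone, 12 had one in clone 4 alone and 3 in clone 5 alone. By gene, 13 members had a co-bound peak, 10 had a reproducible PLAG1-S peak beside a USF2 peak that was not co-bound, 12 had PLAG1-S with no USF2 peak in either clone, and EED and KDM5A had no peak in any of the 4 lists. The co-bound peaks were the stronger ones, with a median clone 4 PLAG1-S fold of 20.9 (range 5.51 to 33.4) and a median width of 829 bp. Those not co-bound had a median fold of 5.80 and a width of 347 bp. The same contrast held over the genome, where the medians were 18.9 and 655 bp for co-bound and 6.06 and 335 bp for other reproducible PLAG1-S peaks. A co-bound peak must pass the calling limit in 4 libraries and any other reproducible PLAG1-S peak in 2, so the contrast is given as a description without a test.

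**Figure D2:**
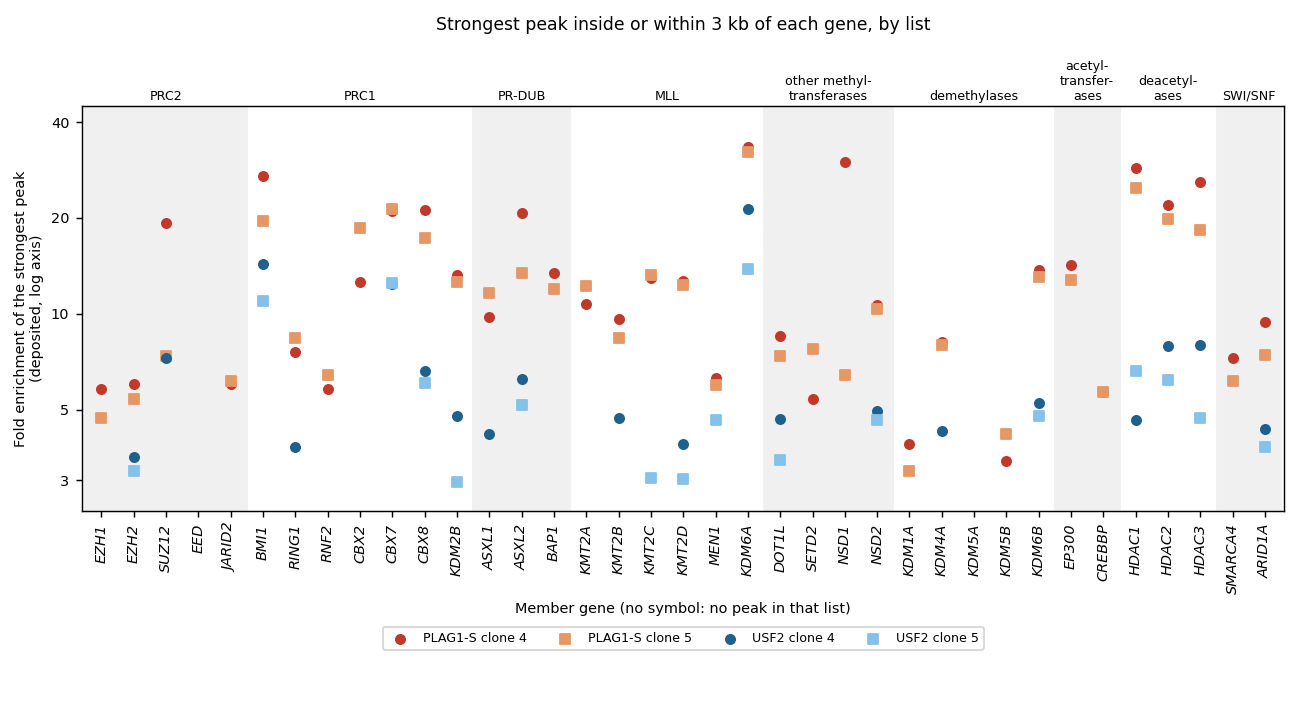
Deposited fold enrichment (log axis) of the strongest peak inside or within 3 kb of each member, 1 symbol per list, with members ordered by complex or activity and no error bars since each symbol is 1 library. KDM6A stands highest in clone 4 for both factors (33.4 and 21.3), EED and KDM5A have no symbol, and the clone 5 symbol of NSD1 is low (6.41) because the clone 5 peak beyond its end lies outside the 3 kb limit.

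Of the PRC2 genes, EZH2, the catalytic methyltransferase, was co-bound, SUZ12, EZH1 and JARID2 carried PLAG1-S without a reproducible USF2 peak, and EED had no peak. Co-occupancy at EZH2 was weak. Its peak at chr7:148883804-148884826, with the summit 362 bp upstream of the start, had PLAG1-S folds of 6.02 in clone 4 and 5.39 in clone 5. The clone 5 fold belongs to a peak with its summit at −346. Another clone 5 PLAG1-S peak, with a fold of 3.72 and its summit at +230, is the one that overlaps the USF2 peak. The USF2 folds were 3.54 and 3.21, from 31 (95% Poisson interval 21.1 to 44.0) and 22 (13.8 to 33.3) fragments over backgrounds of 8.03 and 6.17. The USF2 summit was 647 bp from that of PLAG1-S in clone 4, so that in this clone the 2 peaks overlap at their flanks and not at their summits.

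SUZ12 encodes the scaffold subunit of PRC2. Its PLAG1-S peak 72 bp upstream of the start reached a fold of 19.3 in clone 4 and 7.35 in clone 5, from 84 (67.0 to 104.0) and 40 (28.6 to 54.5) fragments. The local backgrounds were 3.41 and 4.58 fragments. These intervals cover counting error only, and the counts of the 2 libraries were not scaled to each other. A difference between the clones was not tested. A USF2 peak with a fold of 7.24 and a summit 4 bp away was called in clone 4 alone. Further PLAG1-S peaks at −518 and +688 had folds of 3.93 and 3.87, and of 9.21 and 4.46, in clones 4 and 5. At EZH1, a paralog of EZH2, 1 PLAG1-S peak had folds of 5.79 and 4.70, and the 4 peaks at JARID2, an accessory subunit, had clone 4 folds of 3.46 to 6.004. SUZ12 has a partial pseudogene copy, and how reads were divided between the copies is not given in the sources used here.

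All 7 PRC1 genes carried a reproducible PLAG1-S peak, and 3 of them were co-bound with large folds for both factors. BMI1, a core subunit needed for stem cell self-renewal, had a peak at chr10:22320717-22321745 with PLAG1-S folds of 27.1 and 19.5 in clones 4 and 5. Its USF2 folds were 14.3 and 11, from 62 (47.5 to 79.5) and 46 (33.7 to 61.4) fragments, and the clone 4 summits of the 2 factors were 5 bp apart. CBX7 and CBX8 encode chromodomain subunits that read methylated histone H3. The CBX7 peak, chr22:39145503-39145996, lay 6888 bp inside the gene and had PLAG1-S folds of 21.1 and 21.4 and USF2 folds of 12.4 and 12.5. Both factors thus differed little between the clones there, and no peak was called at the CBX7 start. The CBX8 peak, chr17:79796818-79797725, had its summit 109 bp beyond 1 end of the gene, with PLAG1-S folds of 21.2 and 17.3 and lower USF2 folds of 6.59 and 6.06.

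CBX2, another chromodomain subunit that neighbours CBX8, had a PLAG1-S peak with folds of 12.6 and 18.5 and no USF2 peak in either clone. KDM2B recruits a variant PRC1 to CpG islands. It held 4 reproducible PLAG1-S peaks, the strongest 43657 bp inside the gene (13.3 and 12.6) and the one nearest the start at +590 (11.5 and 9.03). USF2 was called at the first in clone 5 alone (2.95) and at the second in clone 4 alone (4.78). The E3 ligase genes RING1 (7.61 and 8.39) and RNF2 (5.80 and 6.42) had PLAG1-S near their starts. RING1 also had a USF2 peak of 3.81 in clone 4 alone, 1005 bp upstream of the start.

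All 3 PR-DUB genes carried PLAG1-S and ASXL2 was co-bound. ASXL1 and ASXL2 encode cofactors of the deubiquitinase BAP1. The peak over the ASXL2 start, chr2:25877509-25878750, was the second widest of the co-bound peaks at 1242 bp, with PLAG1-S folds of 20.7 and 13.4 and USF2 folds of 6.22 and 5.16. ASXL1 had its largest PLAG1-S folds at 9.80 and 11.6, with a USF2 peak of 4.19 in clone 4 alone. BAP1 had PLAG1-S folds of 13.4 and 11.9 at a summit 60 bp from 1 end of the gene and of 7.64 and 6.39 at a summit 6 bp from the end of PHF7. No USF2 peak was called there.

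The MLL group held the member peak with the largest PLAG1-S fold in both clones and the largest USF2 fold in clone 4. KDM6A, a demethylase that sits in the KMT2C and KMT2D complexes, had 1 peak in each of the 4 lists and all 4 summits fell between −90 and −85 of its start. At chrX:44872795-44873444 the PLAG1-S folds were 33.4 and 32.2, from 140 (117.8 to 165.2) and 115 (94.9 to 138.0) fragments. The USF2 folds were 21.3 and 13.8, from 80 (63.4 to 99.6) and 51 (38.0 to 67.1) fragments. The peak was within the top 0.631% and 0.455% of the PLAG1-S lists and the top 1.17% and 3.78% of the USF2 lists by fold.

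KMT2D, an enhancer methyltransferase often mutated in lymphoma, was co-bound at its start at a lower level. Its peak at chr12:49060638-49061187 had PLAG1-S folds of 12.7 and 12.3. The USF2 folds were 3.89 and 3.02, from 23 (14.6 to 34.5) and 17 (9.9 to 27.2) fragments, and its clone 5 USF2 peak stood near the bottom of its list, at 89.7% from the top. KMT2A, the MLL gene rearranged in acute leukemia, had PLAG1-S folds of 10.7 and 12.2 at −104 and no USF2 peak. KMT2B, its closest paralog, had 9.62 and 8.39 with a clone 4 USF2 peak of 4.71 whose summit was 518 bp away.

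KMT2C, the paralog of KMT2D, held 4 reproducible PLAG1-S peaks and, elsewhere in the gene, a USF2 peak of 3.05 in clone 5 alone. The peak at −553 had folds of 12.9 and 13.2, and one 94450 bp inside the gene had 13.0 and 7.70 over high backgrounds of 7.17 and 6.67 fragments. Near-identical copies of parts of KMT2C exist elsewhere in the genome, so the second value is uncertain. MEN1 encodes menin, a subunit of the KMT2A and KMT2B complexes. Its 2 reproducible peaks (6.27 and 5.95, and 5.69 and 4.44) lay beyond the gene end, 680 and 1293 bp from an end of MAP4K2. USF2 was called at the first of them in clone 5 alone (4.64). The clone 5 PLAG1-S peaks near the MEN1 start (3.73 and 3.29) had no clone 4 counterpart.

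All 4 genes of the other methyltransferases had PLAG1-S, and NSD1 and NSD2 met the definition of co-bound in different ways. NSD2, altered in multiple myeloma, had its peak 451 bp upstream of the start, at chr4:1870364-1871113, with PLAG1-S folds of 10.7 and 10.4 and USF2 folds of 4.95 and 4.64. The NSD1 peak, chr5:177302943-177304144, was among the strongest, with PLAG1-S folds of 30.0 and 29.6 and USF2 folds of 18.4 and 15.3. It lay 2730 bp beyond the end of NSD1, its summit was 27 bp from the end of RAB24, and its USF2 peak was farther than 3 kb from NSD1. At the NSD1 start itself PLAG1-S had folds of 8.89 and 3.02, from 42 (30.3 to 56.8) and 22 (13.8 to 33.3) fragments, with no USF2 peak. DOT1L, the methyltransferase recruited by MLL fusion proteins, had 8.53 and 7.35 with a clone 4 USF2 peak of 4.66, and SETD2 had 5.42 and 7.73 at −329 with none.

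None of the 5 genes grouped as demethylases was co-bound, although 4 had PLAG1-S. KDM6B, which opposes PRC2, had the most reproducible PLAG1-S peaks of any member, 7, all of them over 1 kb from its start. Those at +22099 and +23722 lay past the gene end, 217 bp from an end of TMEM88 and 64 bp from one of CYB5D1, and count by the 3 kb rule. The strongest of the 7 in clone 4, 9944 bp downstream of the start, had folds of 13.7 and 11.9, while in clone 5 the peak at +7883 was stronger (11.6 and 13.1). The first coincided with a USF2 peak of 4.79 in clone 5 alone. In clone 4 alone, USF2 peaks were called at the PLAG1-S peaks at +2665 (4.61), +7883 (5.26) and +23722 (5.26), the last USF2 peak lying beyond 3 kb of the gene. Near the KDM6B start a PLAG1-S peak was called in clone 5 alone, with a fold of 5.28 at −155. KDM4A had only a peak past its end (8.17 and 8.00, with a clone 4 USF2 peak of 4.29), while single peaks near its start in clone 4 (4.41) and clone 5 (3.95) did not overlap. KDM1A, which encodes LSD1, and KDM5B had weak PLAG1-S peaks at their starts, with folds of 3.90 and 3.20 at +26 and of 3.14 and 3.94 at +46. These are clone 4 positions, and the clone 5 summit of KDM1A was at +434. KDM5A had no peak.

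Both acetyltransferase genes had PLAG1-S without USF2. EP300 had folds of 14.2 and 12.8 at a summit 1024 bp upstream of the start. A second clone 4 peak had a fold of 5.21 at −133, and it overlapped clone 5 peaks with folds of 6.94 at −381 and 3.73 at −55. CREBBP, its paralog, had 3 weaker peaks, with clone 4 folds of up to 5.68.

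Each of the 3 class I deacetylase genes met the definition of co-bound, but only HDAC2 was co-bound near its own start. The HDAC2 peak, chr6:113971099-113971733, was 376 bp upstream with PLAG1-S folds of 21.9 and 19.9 and USF2 folds of 7.94 and 6.20. At HDAC3 the co-bound peak, chr5:141619006-141619536, lay past the gene end with its summit 247 bp from an end of DIAPH1. Its PLAG1-S folds were 25.9 and 18.3 and its USF2 folds 7.97 and 4.72. At HDAC1 the co-bound peak, chr1:32335197-32336450, was also past the gene end, 854 bp from an end of MARCKSL1, with lower PLAG1-S folds of 8.17 and 6.40 and summits of the 2 factors 668 bp apart in clone 4. In clone 5 the PLAG1-S and USF2 summits lay 690 and 727 bp from the clone 4 PLAG1-S summit on the same side, and so close to each other.

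HDAC1 had the largest clone 4 fold among the peaks that were not co-bound. Its PLAG1-S summit 137 bp upstream of the start had folds of 28.6 and 24.8, from 184 (158.4 to 212.6) and 148 (125.1 to 173.9) fragments, the clone 4 value being the highest fragment count of any member peak. No USF2 peak was called there in either clone. At this gene start, PLAG1-S was as high as at the co-bound peaks of BMI1 and HDAC3 (27.1 and 25.9 in clone 4) while USF2 stayed below the calling limit.

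Both SWI/SNF genes had PLAG1-S and ARID1A was co-bound. ARID1A, a subunit often mutated in cancer, had 6 reproducible PLAG1-S peaks. The co-bound peak at chr1:26696482-26697636 had PLAG1-S folds of 5.51 and 5.35 and USF2 folds of 4.36 and 3.82, and its clone 4 summit was at +1466. A second, at chr1:26723158-26723673, lay 27474 bp downstream of the start, with PLAG1-S folds of 9.39 and 7.43 and USF2 folds of 3.17 and 3.02 over high backgrounds of 6.89 and 6.62 fragments. SMARCA4, the ATPase of the complex, had PLAG1-S folds of 5.88 and 6.14 at +208 and of 7.28 and 4.57 deep inside the gene.

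The positions of the peaks were compared next. Of the 75 reproducible PLAG1-S peaks at genes with a known strand, 39 had the summit within 1 kb of the start. The members with no reproducible PLAG1-S peak within 1 kb of the start were CBX7, MEN1, KDM4A, KDM6B, EED and KDM5A. Of the 14 co-bound peaks, 9 had the member's own end as the nearest end of a protein-coding gene and 5 had another gene's. Of these 5, the ARID1A peaks lay inside the gene body, and those of NSD1, HDAC1 and HDAC3 lay outside it, so that their assignment to the member rests on the 3 kb rule. In 12 of the 14, the clone 4 PLAG1-S and USF2 summits lay within 50 bp of each other (median 14 bp). The exceptions were EZH2 and HDAC1.

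**Figure D3:**
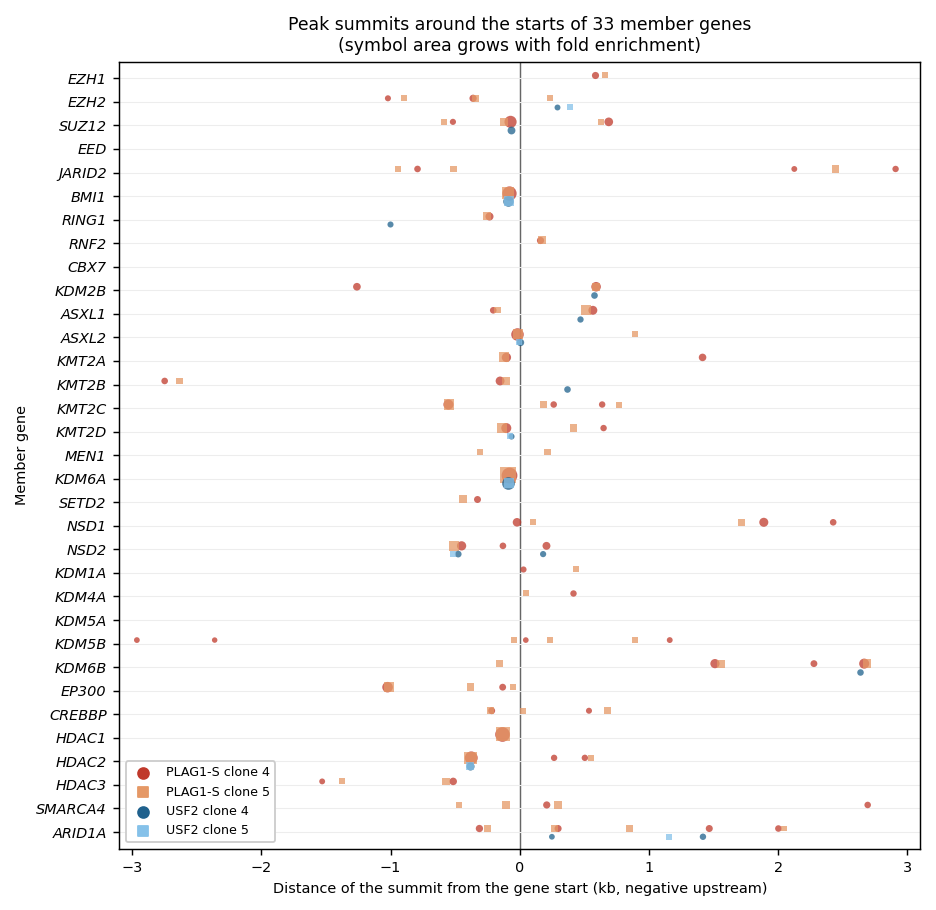
Position of every peak summit within 3 kb of the starts of the 33 members with a known strand (x axis, kb, negative upstream), 1 symbol per peak and list, with the symbol area growing with fold enrichment. The large symbols of KDM6A, BMI1 and HDAC2 hold both factors at nearly 1 position, those of HDAC1 are PLAG1-S alone, and EED and KDM5A have none.

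The 2 clones ranked the member peaks in a similar order. Over the 83 reproducible PLAG1-S peaks, log2 folds of clones 4 and 5 had a Pearson's r of 0.795 and a Spearman's rho of 0.763. Over the USF2 folds of the 14 co-bound peaks these were 0.943 and 0.886. Of the 83 peaks, 9 share a clone 5 partner with another clone 4 peak, as the 3 peaks at the NSD2 start do. Both lists share the merged inputs. At the co-bound peaks PLAG1-S was higher in clone 4 at 13 of 14 and USF2 at 12 of 14, while at the peaks that were not co-bound PLAG1-S was higher in clone 4 at 39 of 69. The exceptions among the co-bound peaks were CBX7 for both factors and HDAC1 for USF2.

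PLAG1-S and USF2 folds rose together over the 14 co-bound peaks, with a Pearson's r of 0.850 and a Spearman's rho of 0.903 in clone 4 and of 0.773 and 0.771 in clone 5. Peaks are not replicates, the 2 factors were pulled down from the same clones against the same inputs, and the values are given with no p. Fold in PLAG1-S exceeded fold in USF2 at all 14 peaks in clone 4 and at 13 in clone 5, the exception being HDAC1. Of the member peaks, 74.8% of clone 4 PLAG1-S peaks and 82.4% of clone 5 PLAG1-S peaks were found in the other clone, against 57.1% and 72.6% of all peaks. For USF2 these shares were 46.4% and 73.7%, against 25.8% and 55.7%.

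The wider set of chromatin regulators, 107 other genes of the same 9 groups, gave shares between those of the members and of all genes. A reproducible PLAG1-S peak was present at 87 of them (81.3%), a USF2 peak at 24 (22.4%) and a co-bound peak at 23 (21.5%). Within 1 kb of the start, 74 (69.2%) had PLAG1-S and 17 (15.9%) were co-bound. Their median gene body was 48.9 kb. Co-bound genes were most frequent in the wider PRC1 set (8 of 16) and the PRC2 set (3 of 6), while none of the 17 wider SWI/SNF genes was co-bound although 15 of them had PLAG1-S. The wider sets of demethylases, with 2 of 9, and acetyltransferases, with 2 of 7, did hold co-bound genes.

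The 5 wider genes with the largest clone 4 USF2 fold at a co-bound peak all exceeded KDM6A in PLAG1-S fold. PHF1, a PRC2 accessory subunit, had PLAG1-S folds of 49.9 and 46.2 and USF2 folds of 40.8 and 34.9. KAT5, the acetyltransferase TIP60, had PLAG1-S at 43.5 and 40.6 and USF2 at 28.5 and 22.4. SIRT1, a deacetylase dependent on NAD, had PLAG1-S at 50.3 and 44.6 and USF2 at 26.1 and 22.3, at a summit 69 bp upstream of its start. The peak assigned to CHD3, a remodeler of the NuRD deacetylase complex, had PLAG1-S folds of 40.8 and 39.2 beside USF2 folds of 22.6 and 16.8, and was 358 bp from an end of RNF227. KAT6A, an acetyltransferase rearranged in leukemia, had PLAG1-S at 42.1 and 35.3 beside USF2 at 20.7 and 19.3.

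The 3 kb limit left strong peaks just inside and just outside it. Inside it, the clone 4 PLAG1-S peak with a fold of 30.0 was 2730 bp from NSD1 and one with a fold of 10.0 was 2988 bp from KDM6B. Outside it, a peak with a fold of 6.88 was 3218 bp from DOT1L and one with a fold of 10.6 was 3456 bp from RING1. Gene bodies are single RefSeq intervals, so that alternative starts, exons and introns were not told apart.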

How the data were processed

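ChIP-seq peak lists of 4 immunoprecipitated libraries were used, PLAG1-S (anti-Flag) and USF2 in K562 clones 4 and 5. The inputs have no list of their own. The submitters' processing notes name cutadapt, HISAT2 2.0.4, SAMtools, MACS2 and bedtools, on hg38. How reads with several matches were treated is not given in the sources used here. The authors called peaks per library against the merged inputs, without pooling clones. The fold that the authors deposited is a ratio of summit pileup to local background, each plus 1. The −log10 p and −log10 q that the authors deposited come from the Poisson model of the caller. The deposited score is 10 times the −log10 q, rounded down. USF2 peak names carry a q limit of 0.05.

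Fragments at each summit were recovered from the fold and p (tolerance 0.001 in −log10 p), which succeeded for all member peaks. On simulated summits it succeeded for 99.8% to 100% of 500 per list. These were made with the same formulas, so they check the computation and not whether the deposited values follow them. The 95% intervals of the fragment counts are exact Poisson intervals and cover counting error only. Reproducible peaks carry clone 4 coordinates. Co-bound peaks use a distance of 100 bp between edges. Genes are RefSeq intervals (GRCh38.p14), and strand and starts come from the RefSeq promoter table, which was matched for all but 4 members (BAP1, CBX2, CBX8, DOT1L). Python 3.11.15, numpy 2.4.6, pandas 2.3.3, scipy 1.17.1 and matplotlib 3.10.9 were used. No test was made, with 2 clones per factor.

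The members, the wider list and the rules were chosen with earlier results of these data known. Named in full are all co-bound members and the 6 others with the largest clone 4 PLAG1-S fold (SUZ12, EP300, KDM6B, BAP1, KDM2B and KMT2C), with the 5 wider genes of largest clone 4 USF2 fold. The start peaks of HDAC1 and NSD1 were picked out with their values known. Libraries of 1 clone number come from the same clone of cells, as the labels state, so the clone pairs PLAG1-S with USF2. Alternatives were each clone alone, their union, the clone as a block, stricter q limits, other overlaps and other gene windows.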

Additional observations from a re-analysis of the deposited data

How the results depend on the processing

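The count of 35 member genes with PLAG1-S ranged from 30 to 35 under all 11 alternatives. Most alternatives have no share over all protein-coding genes beside them and describe the member counts only. Counts that rest on USF2 moved more. With only 1 clone required, leaving out each clone in turn, 17 to 20 genes had USF2, 15 to 20 genes were co-bound and the co-bound peaks numbered 16 to 26, against 12, 13 and 14. Without clone 5 these were the higher values, and the clone 5 USF2 list is the shorter of the 2. The union of both clones gave 22 genes with USF2, 21 co-bound genes and 28 co-bound peaks. With the clone as a replicate block, so that each clone was read alone and the counts averaged, 18.5 genes had USF2, and no other count moved by over 1.5 times. A −log10 q of at least 10 left 4 genes with USF2 (BMI1, CBX7, KDM6A and HDAC2), 5 co-bound genes (these and NSD1), 5 co-bound peaks and 45 PLAG1-S peaks. Within 1 kb of the gene start there were 48 PLAG1-S and 9 co-bound peaks, and 9 co-bound peaks had the member's own end nearest. Requiring clone 4 summits within 100 bp removed EZH2 and HDAC1. USF2 in clone 5 rested on 17 to 22 fragments at EZH2, ASXL2, KMT2D, NSD2, HDAC3 and ARID1A, so that these folds carry wide counting intervals. USF2 was called in 1 clone alone at 15 PLAG1-S peaks, SUZ12 among them, and whether depth bears on this was not tested.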
